A study of Mus musculus with 8 samples.

Results

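The use of the T cell receptor (TCR) beta variable (TRBV) and joining (TRBJ) gene segments was measured in CD8 T cells from mouse tumours. The segments were taken from every productive beta-chain contig in cell barcodes with exactly 1 such contig. This gave 33 segments, 21 TRBV and 12 TRBJ, among the 166 V and J names found in productive alpha and beta contigs. It gave 21813 cells of the 24018 barcodes with a productive beta chain. Wild-type C57BL/6 mice carried palpable subcutaneous tumours of MC38, a mouse colon carcinoma line. Experiment 1 set buffer against a subcutaneous dose of 10 mg/kg rhIL-7-hyFc, in which interleukin-7 is joined to a hybrid Fc to make it last longer. Tumours were taken 7 days later and CD8 T cells enriched with magnetic beads. Experiment 2 used a subcutaneous dose of 1.25 mg/kg rhIL-7-hyFc, either alone or combined with an intravenous T cell engager (TCE) that binds mouse PD-L1 and CD3ε, begun on day 3. Tumours were taken 24 hours after the last treatment, and viable CD45+ TCRb+ CD8a+ cells were sorted by flow cytometry. Each group was a single library, and the labels do not say from how many mice its cells came. No difference between groups therefore has a replicate check and no p-value was computed: 95% intervals cover counting error only. The experiments differed in dose, schedule, enrichment and software, so treatments were compared only within an experiment.

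A developing T cell builds its beta chain by joining 1 V, 1 D and 1 J segment, trimming the ends and adding bases that no segment encodes. The junction, called complementarity-determining region 3 (CDR3), contacts the peptide held by the MHC molecule, while the V segment also encodes the loops that mostly contact the MHC itself. The CDR3 bases act as a barcode for the descendants of a single T cell, so cells with the same CDR3 base sequence in a library were counted as 1 clonotype. Segment use per clonotype counts each such family once, and use per cell weights it by its size. The mouse beta locus lies on chromosome 6. In the GRCm38 build used here, Trbv1 (40891229 to 40891885, plus strand) is its first V gene. Trbd1 (41533201 to 41533212), Trbj1-1 (41533864 to 41533911) to Trbj1-6 (41535554 to 41535606) and the constant gene Trbc1 (41538218 to 41539881) follow. A second unit of Trbd2 (41542163 to 41542176), Trbj2-1 (41542754 to 41542803) to Trbj2-7 (41543810 to 41543856) and Trbc2 (41546730 to 41548352) comes next. Trbv31 (41557691 to 41558452) is behind Trbc2 on the minus strand.

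The parts of the segments that enter the CDR3 are shown because the results below turn on where they end and where added bases begin. They were read from the annotated GRCm38 transcripts, 5′ to 3′ on the coding strand. Capitals mark the codon of the conserved cysteine that opens the CDR3 in a V segment and of the conserved phenylalanine that closes it in a J segment.
TRBV5 (Trbv5, 41062332 to 41062803): TGTgccagcagccaaga
TRBV2 (Trbv2, 41047340 to 41047995): TGTgccagcagccaaga
TRBV13-1 (Trbv13-1, 41116007 to 41116468): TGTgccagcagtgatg
TRBV26 (Trbv26, 41227505 to 41227993): TGTgccagcagtctgtc
TRBV16 (Trbv16, 41151740 to 41152230): TGTgcaagcagcttaga
TRBJ1-1: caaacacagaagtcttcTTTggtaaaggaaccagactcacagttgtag
TRBJ1-6: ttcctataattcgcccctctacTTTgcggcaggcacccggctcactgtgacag
TRBJ2-5: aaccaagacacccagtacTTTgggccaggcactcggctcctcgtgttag
TRBJ2-7: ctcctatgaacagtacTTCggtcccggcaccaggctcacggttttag
The D segments between them are short and rich in G.
TRBD1: gggacagggggc
TRBD2: gggactgggggggc
TRBV2 and TRBV5 end in the same letters and differ only upstream of them. The V segments put 14 (TRBV20 and TRBV30) to 21 (TRBV3) germline bases into the CDR3 and the J segments 19 (TRBJ2-7) to 25 (TRBJ1-6).

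The CDR3 sequences of the largest clonotype of each library show what these joints look like in the cells, with capitals on the insert, that is, on the bases left after matching both ends to their germline segments.
buffer, TRBV2 with TRBJ2-1, 162 cells: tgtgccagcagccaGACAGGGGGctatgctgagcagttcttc
rhIL-7-hyFc 10 mg/kg, TRBV5 with TRBJ1-1, 26 cells: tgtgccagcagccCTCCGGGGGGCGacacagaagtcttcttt
rhIL-7-hyFc 1.25 mg/kg, TRBV5 with TRBJ2-1, 178 cells: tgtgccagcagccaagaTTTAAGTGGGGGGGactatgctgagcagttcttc
combination, TRBV16 with TRBJ2-5, 517 cells: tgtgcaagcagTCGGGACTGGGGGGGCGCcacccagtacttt
Each was found in 0 of the other 3 libraries. The first made up 5.47% of the buffer cells (95% Clopper-Pearson interval 4.68 to 6.35) and the last 6.99% of the combination cells (6.42 to 7.60). The largest clonotype of the 10 mg/kg library was 0.514% of its cells.

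The buffer library held 2960 cells in 1205 clonotypes, the 10 mg/kg library 5059 in 4553, the 1.25 mg/kg library 6402 in 3726 and the combination 7392 in 3987. Clonotypes of at least 5 cells numbered 71, 44, 128 and 129 in that order, and they held 56.2%, 8.20%, 39.4% and 43.3% of the cells. A beta contig rested on a median of 20, 19, 13 and 13 UMIs. Barcodes with several productive beta chains (263, 523, 631 and 788) were left out, and no other doublet filter was used. Between 24 and 65 cell barcodes were shared by any pair of libraries, of which 0 carried the same beta CDR3. Among the cells with an expression profile, Cd3e had a UMI in 98.7% to 99.7%, Cd8a in 92.9% to 95% and Cd4 in 0.265% to 1.24%. Lyz2, a macrophage gene, had a UMI in 18.8% of buffer and 22% of 1.25 mg/kg cells but in 4.33% of 10 mg/kg and 2.96% of combination cells. C1qa, Csf1r and Adgre1, the other 3 macrophage genes looked at, had the same order within each experiment. With every Lyz2-positive barcode left out, each count of segments given below for a treatment contrast stayed within 1 of its value.

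Segment names were checked against the V gene transcripts counted in the same cells. The top Trbv gene was the segment's own for 19 of 21 names in the buffer library and 20 of 22 in each of the others. For the name TRBV10 it was Trbv4 (41059394 to 41059886), with a UMI in 81.3%, 90.2%, 69.7% and 81.8% of the cells so named and in 0.229% to 0.762% of other cells. Trbv10 itself is annotated as a pseudogene and had 0 UMIs in these cells, so TRBV10 below stands for the contigs given that name. TRBV5 cells had a Trbv5 UMI less often than other segments' cells had their own gene, at 65.2%, 66.9%, 42.4% and 48.7%, against at most 0.507% of cells using other segments. Contigs named for TRBV12-2 and TRBV13-2 together were counted as TRBV13-2. Among the cells checked, 196, 451, 436 and 560 had this double name, and 9, 23, 26 and 17 the name TRBV13-2 alone. Of the cells with the double name, 100%, 99.8%, 98.9% and 99.6% had a Trbv13-2 UMI. A Trbv12-2 UMI was found in 42.9%, 39.0%, 19.3% and 33.6% of them.

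Counted once per clonotype, the repertoires were broad and alike in outline. TRBV13-2 was the most used V segment in all 4 libraries, at 9.38% of buffer, 10.4% of 10 mg/kg, 10.4% of 1.25 mg/kg and 9.38% of combination clonotypes. TRBV12-2 (8.13% to 9.21%), TRBV12-1 (5.98% to 9.23%), TRBV3 (6.79% to 7.68%), TRBV19 (6.02% to 7.30%), TRBV13-1 (6.13% to 7.52%), TRBV13-3 (4.56% to 7.33%) and TRBV16 (3.86% to 7.36%) were among the next. The 5 most used V segments of a library held 40.4%, 40.9%, 42.8% and 40.8% of its clonotypes. At the other end, TRBV30 was found in 3, 11, 13 and 9 clonotypes and TRBV23 in 0, 8, 24 and 22. For TRBV23 in the buffer library, 0 of 2960 cells allows a share of up to 0.125%. The segments whose shares lay nearest those of TRBV5 across the 4 libraries were TRBV29, TRBV1 and TRBV13-1, with summed absolute log2 differences of 0.58, 0.88 and 1.04.

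The question in experiment 1 was whether the cells found after rhIL-7-hyFc at 10 mg/kg use other beta segments than those found after buffer. Per cell they did, with many V segments displaced: TRBV12-1, TRBV13-3, TRBV1, TRBV14, TRBV29 and TRBV15 took a larger share of the cells after rhIL-7-hyFc, and TRBV5, TRBV2, TRBV13-1, TRBV26 and TRBV31 a smaller one. Of 19 V segments with at least 20 cells in either library, 11 (57.9%) differed by at least 1.5-fold, 6 higher (31.6%) and 5 lower (26.3%) after rhIL-7-hyFc. TRBV13-3 held 1.93% of buffer and 5.85% of 10 mg/kg cells, a 3.04-fold higher share and a difference of 3.93 percentage points (95% Newcombe interval 3.09 to 4.73). TRBV12-1 held 3.34% and 7.31% (2.19-fold, 2.98 to 4.92 points), TRBV1 2.43% and 5.00% (2.06-fold) and TRBV15 1.05% and 3.18% (3.04-fold). TRBV5 held 13.6% of buffer and 7.27% of 10 mg/kg cells, a difference of -6.31 points (-7.76 to -4.90). The 6 higher segments had 0% to 21% of their cells in clonotypes of at least 5 cells in either library. The 5 lower segments had 68.1% to 83.3% in the buffer library and 0% to 34.2% in the 10 mg/kg library.

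**Figure D1:**
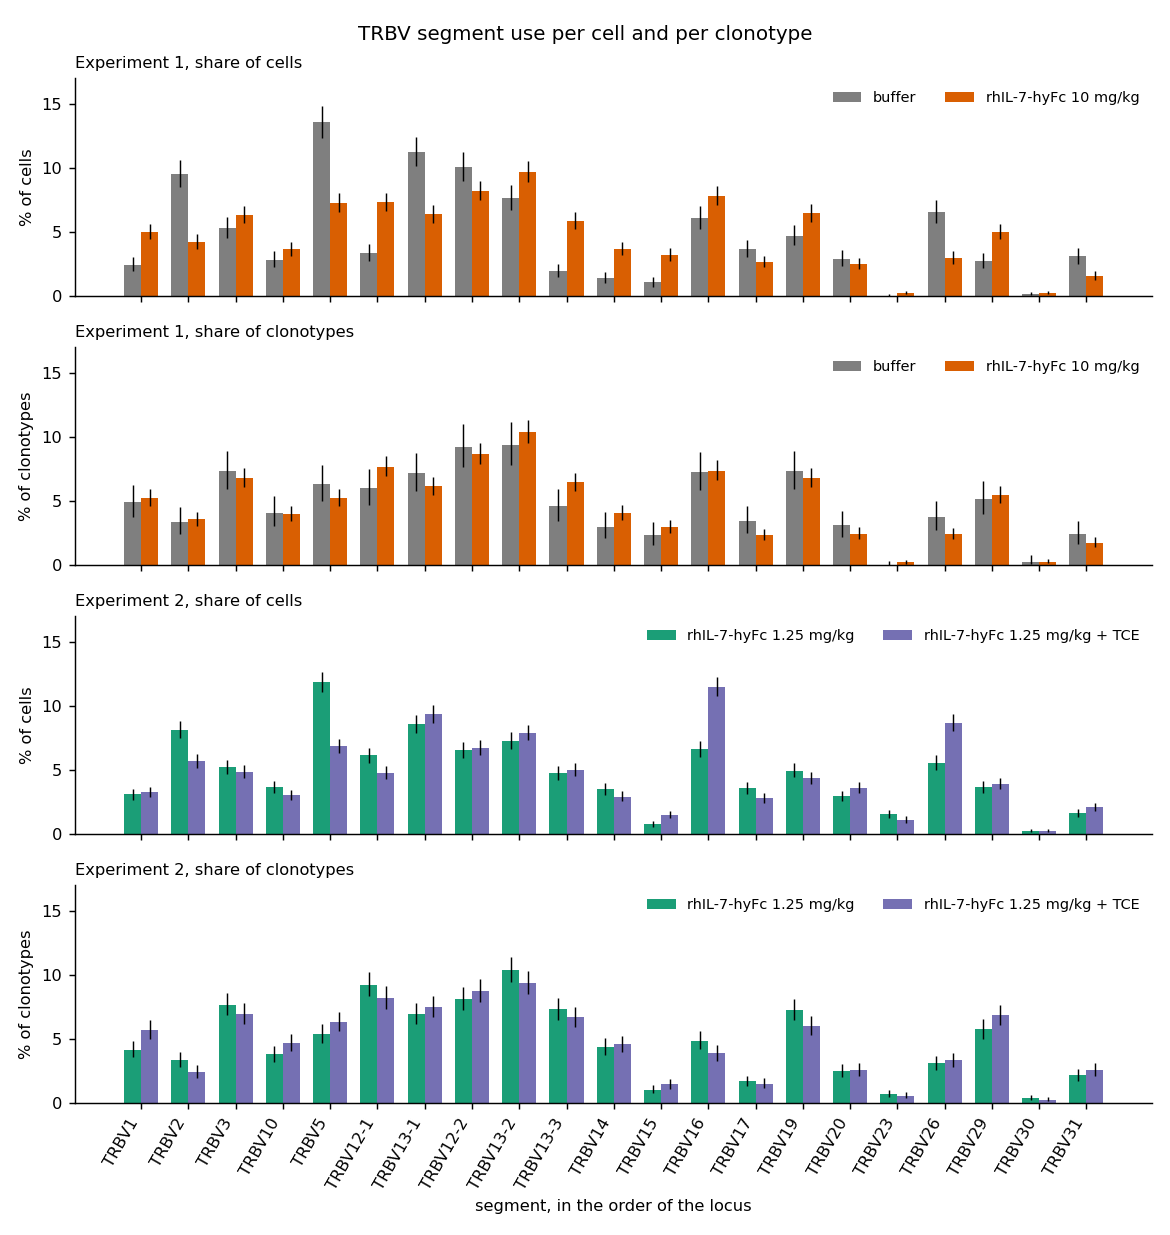
Share of cells and of clonotypes (y axes, percent) using each of 21 TRBV segments (x axis, in the order of the locus), in both libraries of each experiment. Bars are shares and lines their 95% Clopper-Pearson intervals; per cell, TRBV5 reaches 13.6% in the buffer library and TRBV16 11.5% in the combination library, while the bars per clonotype of experiment 1 lie closer together than its bars per cell.

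Several of these displacements rested on few families. In the buffer library, 162 of 282 TRBV2 cells (57.4%) and 158 of 333 TRBV13-1 cells (47.4%) were a single clonotype, as were 56 of 91 TRBV31 cells (61.5%). With the largest clonotype of the segment itself left out, TRBV13-1 was 6.25% of buffer and 6.22% of 10 mg/kg cells. TRBV31 was then higher at 10 mg/kg, at 1.21% and 1.54%. The others stayed lower: TRBV5 at 10.7% and 6.76%, TRBV26 at 5.50% and 2.68%, and TRBV2 at 4.29% and 3.91%. TRBV2 went from 9.53% to 4.21% of cells, a difference of -5.32 points, but of -0.0567 points when the largest clonotype of each library was left out. TRBV26 went from 6.55% to 2.97% (-3.59 points), and by -1.59 points among cells with exactly 1 alpha and 1 beta chain. Clonotypes of at least 5 cells held 79.9% of TRBV5 cells, 83.3% of TRBV2 cells and 80.9% of TRBV26 cells in the buffer library, against 34.2%, 23.0% and 24.0% in the 10 mg/kg library. For TRBV13-3 that share was 0% in both. Per cell intervals are too narrow for this reason, since cells of a clonotype share their receptor by descent.

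Per clonotype, the same contrast was much smaller. The median absolute difference over 21 V segments was 0.633 points per clonotype and 2.07 points per cell. Of 19 V segments, 1 (5.26%) passed 1.5-fold: TRBV26 was 3.73% of buffer and 2.42% of 10 mg/kg clonotypes, 0.647-fold (-1.32 points, -2.61 to -0.267). TRBV13-3 (4.56% and 6.44%) and TRBV12-1 (5.98% and 7.67%) were higher per clonotype too, with intervals above 0 (0.379 to 3.15 and 0.0336 to 3.14 points), at 1.41-fold and 1.28-fold. TRBV17 was lower, at 3.40% and 2.33% (-2.32 to -0.068 points). For the other V segments the interval of the difference included 0, among them TRBV14 (2.99% and 4.04%), TRBV5 (6.31% and 5.21%) and TRBV2 (3.32% and 3.56%). Over all 19, the interval excluded 0 for 4 segments (21.1%) per clonotype and for 16 (84.2%) per cell.

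Experiment 2 asked the same of adding the T cell engager to rhIL-7-hyFc at 1.25 mg/kg. TRBV16, TRBV26 and TRBV15 took a larger share of the combination cells and TRBV5 a smaller one, and these 4 of 20 V segments (20%; 3 higher, 15%, and 1 lower, 5%) passed 1.5-fold. TRBV16 went from 6.64% to 11.5% of cells, 4.87 points higher (3.92 to 5.82). This rested on the largest clonotype: 517 of 851 TRBV16 cells (60.8%) in the combination library were the family printed above, and with the largest clonotype of each library left out TRBV16 was 1.97 points lower instead (a difference of -1.97). With every productive beta contig counted, barcodes with several included, the difference was 9.66 points. TRBV16 was also less used per clonotype in the combination library, at 4.86% and 3.86% (-0.995 points, -1.92 to -0.0838).

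TRBV26, TRBV5 and TRBV2 kept their direction in experiment 2 with the largest clonotype of the segment itself left out of each library. TRBV26 was then 4.53% of 1.25 mg/kg and 6.32% of combination cells, TRBV5 9.32% and 6.27%, and TRBV2 7.34% and 3.21%. TRBV26 went from 5.56% to 8.69% of cells (3.12 points, 2.27 to 3.98), and 187 of its 642 combination cells (29.1%) were a single clonotype. TRBV15 went from 0.734% to 1.47% (2.01-fold, 0.393 to 1.09 points), and 38 of its 109 combination cells (34.9%) were a single clonotype. Without the largest TRBV15 clonotype of each library it was 0.641% and 0.965%. TRBV5 went from 11.8% to 6.85% (-4.99 points, -5.98 to -4.02). With only the largest clonotype of each library left out, the TRBV5 difference was -1.96 points. In the 1.25 mg/kg library that clonotype held 178 of the 758 TRBV5 cells. TRBV2 went from 8.14% to 5.67% (0.697-fold), and 188 of its 419 combination cells (44.9%) were a single clonotype. TRBV12-1 went from 6.12% to 4.76% (0.778-fold). Per clonotype, 0 of 20 V segments (0%) passed 1.5-fold. The largest differences there were TRBV1, at 4.16% and 5.69% (1.53 points, 0.567 to 2.50), TRBV19, at 7.27% and 6.02% (-1.25 points, -2.38 to -0.142), and TRBV29, at 5.74% and 6.85% (1.10 points, 0.0166 to 2.19). The interval of the difference excluded 0 for 5 of 20 V segments (25%) per clonotype, TRBV16 (-0.995 points) and TRBV2 (-0.920 points) among them, and for 12 of 20 (60%) per cell. The median absolute difference was 0.655 points per clonotype and 0.621 points per cell.

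J use per clonotype had the same outline in the 4 libraries. TRBJ2-7 was the most used J segment (22.2%, 20.9%, 20.7% and 21.2% of clonotypes), followed by TRBJ2-1 (13.3%, 14.5%, 13.6% and 13.5%) and TRBJ1-1 (11.4%, 11.1%, 11.5% and 11.4%). The order of the segments was thus the same at its top in every library. TRBJ1-5 was the least used (2.82%, 2.37%, 2.98% and 2.73%). The TRBJ2 cluster as a whole took 65.6%, 66.6%, 65.4% and 66.3% of clonotypes. Between treatments, 0 of 12 J segments (0%) differed by 1.5-fold per clonotype in either experiment, and the interval of the difference included 0 for all 12 in both. The widest of these intervals was that of TRBJ2-7 in experiment 1, from -3.98 to 1.26 points.

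**Figure D2:**
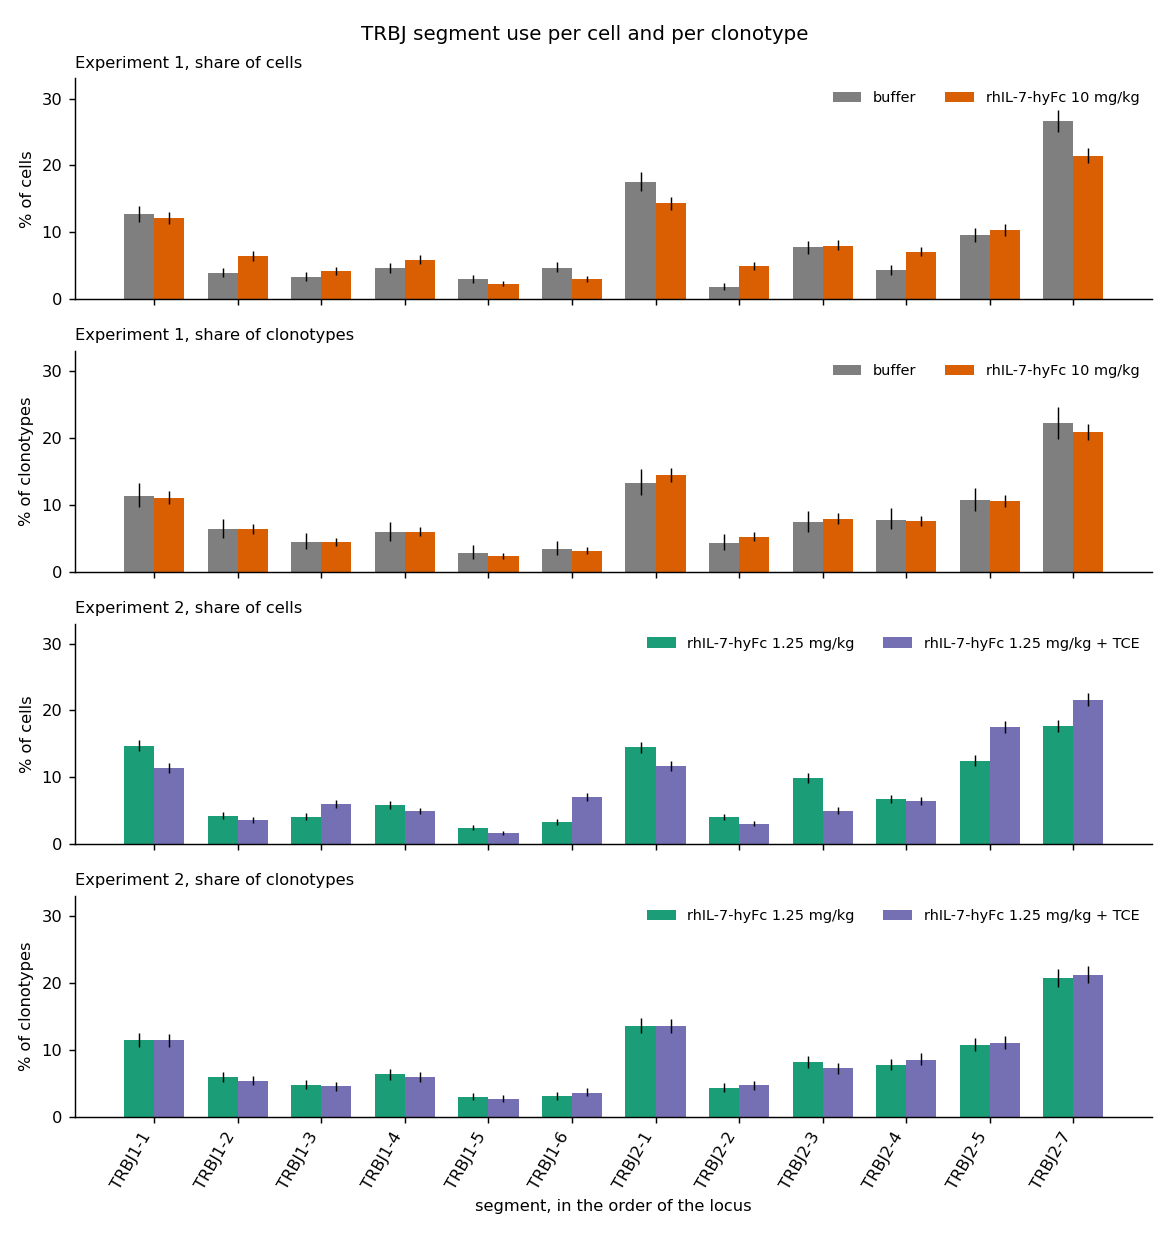
Share of cells and of clonotypes (y axes, percent) using each of 12 TRBJ segments (x axis, in the order of the locus), in both libraries of each experiment. Bars are shares and lines their 95% Clopper-Pearson intervals; the bars per clonotype overlap in their intervals for every segment, while per cell TRBJ2-2 stands at 1.82% and 4.90% in experiment 1 and TRBJ2-3 at 9.95% and 5.01% in experiment 2.

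Per cell, J use differed more. In experiment 1, 4 of 12 J segments (33.3%) passed 1.5-fold, and the interval of the difference excluded 0 for 7 (58.3%). TRBJ2-2 (1.82% of buffer and 4.90% of 10 mg/kg cells, 2.69-fold), TRBJ1-2 (3.95% and 6.42%) and TRBJ2-4 (4.29% and 7.08%) were higher after rhIL-7-hyFc. TRBJ1-6 was lower, at 4.73% and 2.98% (-1.74 points), but among cells with exactly 1 alpha and 1 beta chain it was 0.874 points higher instead. In experiment 2, 2 of 12 (16.7%) passed, or 6 among cells with exactly 1 alpha and 1 beta chain, and the interval excluded 0 for 11 (91.7%). TRBJ1-6 went from 3.33% to 7.03% (3.71 points, 2.98 to 4.44), and TRBJ2-3 from 9.95% to 5.01% (-4.94 points, -5.84 to -4.06). TRBJ2-5 went from 12.5% to 17.5% (5.05 points), and was 1.5 points lower without the largest clonotypes (a difference of -1.5), the largest of which joined TRBV16 to TRBJ2-5.

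The V segments of expanded clonotypes differed from those of clonotypes seen in a single cell. This contrast lies within a library, so the treatment, the enrichment and the software are the same on both sides. Of 19 V segments with at least 20 clonotypes in every library, 4 (21.1%) held a larger share of the clonotypes of at least 5 cells than of the 1-cell clonotypes in all 4 libraries: TRBV5, TRBV26, TRBV2 and TRBV13-1. TRBV5 was 15.5% of expanded and 5.28% of 1-cell clonotypes after buffer, 22.7% and 4.98% at 10 mg/kg, 15.6% and 4.65% at 1.25 mg/kg, and 14.0% and 5.90% with the combination. The difference averaged 11.7 points with an SD of 4.19 over the 4 libraries, and its interval lay above 0 in each. TRBV26 was 15.5%, 9.09%, 12.5% and 8.53% of expanded against 3.03%, 2.31%, 2.71% and 2.70% of 1-cell clonotypes. Its difference averaged 8.72 ± 3.02 points (SD, n = 4 libraries), again with every interval above 0. Over all V segments tested the interval excluded 0, in either direction, for 3 of 19 (15.8%), 3 of 19 (15.8%), 9 of 20 (45%) and 10 of 20 (50%).

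TRBV2 was 5.63%, 11.4%, 15.6% and 7.75% of expanded against 2.83%, 3.46%, 2.82% and 2.18% of 1-cell clonotypes, with 3 of 4 intervals above 0. TRBV13-1 was 9.86%, 9.09%, 10.9% and 12.4% against 6.55%, 6.00%, 6.62% and 7.25%, with 1 of 4 intervals above 0. These 4 segments, chosen after their values were seen, made up 17.7%, 16.8%, 16.8% and 18% of 1-cell clonotypes, 29.7%, 27.2%, 28.8% and 30.7% of clonotypes of 2 to 4 cells, and 46.5%, 52.3%, 54.7% and 42.6% of clonotypes of at least 5 cells. The order of the smallest and largest clones follows from that choice, which did not use the clonotypes of 2 to 4 cells. TRBV5, TRBV26 and TRBV2 were higher in all 4 libraries under each of 5 alternative definitions of the clonotype, the expansion or the barcodes used. TRBV13-1 was not when expanded meant at least 10 cells, or at least 0.1% of the library.

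Lower among expanded clonotypes in all 4 libraries were 9 of 19 V segments (47.4%): TRBV1, TRBV3, TRBV10, TRBV12-1, TRBV13-2, TRBV13-3, TRBV14, TRBV19 and TRBV29. The largest mean differences were those of TRBV29 (-5.53 points), found among the expanded clonotypes 1, 0, 1 and 0 times, and TRBV13-3 (-5.02 points). The interval lay below 0 in 2 of 4 libraries for TRBV12-1, TRBV13-3 and TRBV29, in 1 for TRBV1 and TRBV3, and in 0 for the other 4. Under each of the same 5 alternatives TRBV3, TRBV12-1, TRBV13-3, TRBV14 and TRBV29 stayed lower in all 4 libraries. TRBV1, TRBV10, TRBV13-2 and TRBV19 did not under at least 1 of them. Of the J segments, TRBJ1-1 (1 of 12, 8.33%) was higher among expanded clonotypes in all 4 libraries, at 19.7%, 20.5%, 13.3% and 12.4% against 10.8%, 11%, 11.6% and 11.4%. TRBJ2-1 and TRBJ2-4 (2 of 12, 16.7%) were lower in all 4. Under the same 5 alternatives TRBJ2-4 stayed lower in all 4 libraries each time and TRBJ2-1 never did, and TRBJ1-1 was higher except where expanded meant at least 2 cells. Without Lyz2-positive barcodes, 5 V segments were higher and 9 lower, and 1 J segment was higher and 3 lower.

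**Figure D3:**
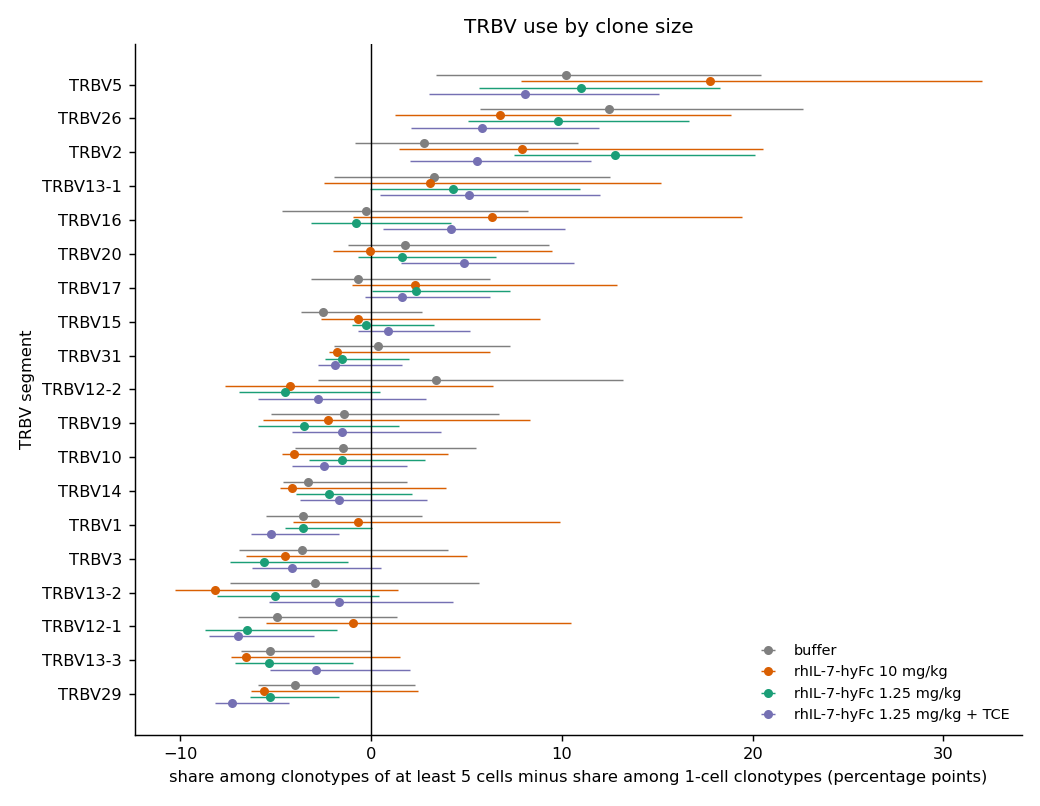
Share of clonotypes of at least 5 cells minus share of 1-cell clonotypes (percentage points) for each of 19 TRBV segments, with 1 mark for each of the 4 libraries. TRBV5 lies between 8.05 and 17.7 points and TRBV26 between 5.83 and 12.5 points in every library, and TRBV29 below 0 in every library.

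The expanded TRBV26 clonotypes shared a feature of their junction that segment use does not show. At codon 6 of the CDR3, counted from 1 at the cysteine codon, an arginine codon (CGN, AGA or AGG, where N is any base) stood in 10 of 11 expanded TRBV26 clonotypes after buffer (90.9%), 4 of 4 at 10 mg/kg (100%), 11 of 16 at 1.25 mg/kg (68.8%) and 10 of 11 with the combination (90.9%). Among 1-cell TRBV26 clonotypes it stood in 10 of 31 (32.3%), 17 of 102 (16.7%), 15 of 92 (16.3%) and 23 of 98 (23.5%). Germline TRBV26 reaches only into the start of codon 6, with the letters tc. The feature was chosen after the sequences were seen. The first and second largest TRBV26 clonotypes of each library are shown with codon 6 in capitals.
buffer, TRBJ1-6, 33 cells: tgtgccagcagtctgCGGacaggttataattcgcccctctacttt
buffer, TRBJ1-6, 26 cells: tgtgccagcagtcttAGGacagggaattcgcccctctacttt
rhIL-7-hyFc 10 mg/kg, TRBJ1-1, 15 cells: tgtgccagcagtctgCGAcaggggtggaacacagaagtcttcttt
rhIL-7-hyFc 10 mg/kg, TRBJ1-2, 8 cells: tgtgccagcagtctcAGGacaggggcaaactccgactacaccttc
rhIL-7-hyFc 1.25 mg/kg, TRBJ1-1, 70 cells: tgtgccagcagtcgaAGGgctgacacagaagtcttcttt
rhIL-7-hyFc 1.25 mg/kg, TRBJ2-1, 26 cells: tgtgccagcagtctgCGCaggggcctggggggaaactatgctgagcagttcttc
combination, TRBJ1-6, 187 cells: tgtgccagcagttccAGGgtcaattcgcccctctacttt
combination, TRBJ1-3, 71 cells: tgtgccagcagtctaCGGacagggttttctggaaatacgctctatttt
All 8 carry the codon, with 4 different arginine spellings and 5 different J segments.

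Over the libraries, 35 of 42 expanded TRBV26 clonotypes had the arginine codon, and these were 35 different base sequences encoding 31 different amino acid sequences. AGG was the commonest spelling (5, 1, 7 and 4 clonotypes), then CGG (3, 1, 1 and 5). In the combination library the 10 clonotypes held 478 of the 483 expanded TRBV26 cells, and in the buffer library 152 of 157. Clonotypes of 2 to 4 cells lay between the extremes in all 4 libraries, at 2 of 3, 3 of 4, 4 of 7 and 9 of 23. With other V segments the codon stood in 8.33%, 10%, 5.36% and 9.32% of expanded and in 9.48%, 10.6%, 9.89% and 9.21% of 1-cell clonotypes, the widest gap being in the 1.25 mg/kg library (6 of 112 expanded clonotypes). In the share of 1-cell clonotypes with the codon, TRBV26 ranked 1, 2, 2 and 1 of 19 V segments, where the median V segment had 9.72%, 10.7%, 10.7% and 10.0%.

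Pdcd1 encodes PD-1, an inhibitory receptor carried by T cells that have met antigen. Among 1-cell TRBV26 clonotypes 6 of 10 cells with the codon and 5 of 20 without it had a Pdcd1 UMI after buffer, 6 of 17 and 7 of 85 at 10 mg/kg, 12 of 15 and 9 of 77 at 1.25 mg/kg, and 19 of 23 and 17 of 75 with the combination. The share was thus higher with the codon in 4 of 4 libraries (60% and 25%, 35.3% and 8.24%, 80% and 11.7%, 82.6% and 22.7%). The median UMIs per cell of the same groups were 6930 and 8036.5, 9108 and 9410, 10877 and 4908, and 6705 and 6570, so that depth was higher with the codon in the 1.25 mg/kg library. Barcodes with neither a TCR contig nor a Cd3 UMI had a Pdcd1 UMI in 17.8%, 3.74%, 5.20% and 8.77%, at median depths of 6858.5, 12062, 5505 and 5196. The buffer share without the codon is close to that background.

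V and J segments were joined in nearly every possible pair, with 216, 236, 237 and 238 of 252 V-J pairs seen. By cells, the leading pair was TRBV13-1 with TRBJ2-7 after buffer (203 cells, 158 of them a single clonotype). At 10 mg/kg it was TRBV16 with TRBJ2-7 (117 cells, the largest clonotype 17), at 1.25 mg/kg TRBV16 with TRBJ2-5 (239 cells, largest 132), and with the combination TRBV16 with TRBJ2-5 (553 cells, largest 517). The second was TRBV2 with TRBJ2-1 after buffer (167 cells, largest 162), TRBV13-2 with TRBJ2-7 at 10 mg/kg (93 cells, largest 5), TRBV5 with TRBJ2-1 at 1.25 mg/kg (227 cells, largest 178) and TRBV2 with TRBJ2-7 with the combination (260 cells, largest 188). The leading pairs of the 10 mg/kg library were made of small families, and those of the other 3 libraries mostly of a single large family. Among pairs with at least 20 clonotypes, the interval of the pair's share excluded the product of its V and J shares for 0 of 6 (0%), 8 of 85 (9.41%), 7 of 65 (10.8%) and 9 of 72 (12.5%).

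TRBV26 with TRBJ1-6 was a leading pair of the combination library, with 216 cells, 187 of them a single clonotype. It was found in 6, 5, 8 and 15 clonotypes where the product of the shares gives 1.53, 3.43, 3.52 and 4.77. The pair had 89, 11, 28 and 216 cells and 5, 1, 1 and 3 clonotypes of at least 5 cells. TRBJ1-6, whose use per cell differed between treatments above, was 9.86%, 2.27%, 2.34% and 10.1% of expanded clonotypes and 3.13%, 3.15%, 3.06% and 3.34% of 1-cell clonotypes.

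Some beta chains were found in several libraries, that is, in mice treated differently. Of 12841 different combinations of V, J and CDR3 amino acids, 383 were found in at least 2 libraries, 47 in at least 3 and 10 in all 4, and 15 had at least 5 cells in each of 2 libraries. Of these 15, TRBV2 had 4, TRBV5, TRBV12-2, TRBV13-2 and TRBV26 had 2 each, and TRBV1, TRBV17 and TRBV20 had 1 each. TRBV2 was itself 5.63% to 15.6% of clonotypes of at least 5 cells, and such small counts do not rank the segments. The share of clonotypes whose chain was found in another library was 25.4%, 31.8%, 25.8% and 21.7% for clonotypes of at least 5 cells, 15.3%, 14.1%, 15.7% and 16.5% for 2 to 4 cells, and 7.82%, 4.87%, 5.88% and 6.53% for 1 cell. It was thus higher the larger the clone in each library. Clonotypes whose amino acids were also encoded by another base sequence in the same library had the same order at the extremes: 11.3%, 4.55%, 17.2% and 15.5% of those of at least 5 cells, against 0.782%, 1.95%, 2.21% and 2.37% of 1-cell clonotypes.

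By V segment, the share of combinations found in several libraries was highest for TRBV20 (17 of 316, 5.38%, 3.16 to 8.47) and TRBV13-2 (63 of 1226, 5.14%, 3.97 to 6.53). Over all V segments it was 383 of 12841. The intervals overlapped those of TRBV2 (4.10%, 2.36 to 6.58), TRBV26 (4.04%, 2.28 to 6.58) and TRBV12-2 (4.02%, 2.93 to 5.36). Described here are 7 chains that were found in at least 3 libraries and had a clonotype of at least 5 cells in at least 2 libraries. A TRBV5-TRBJ2-7 chain had 95, 6, 7 and 11 cells, its germline ends being 15 to 16 bases from J and 15 from V. A TRBV2-TRBJ1-1 chain had 2, 5, 86 and 5 cells. All 83 of its cells with 1 alpha chain used TRAV9D-3, in 4 different alpha base sequences. TRAV genes have near-identical copies, so the alpha name is uncertain between them. Both chains are shown with capitals on the positions that vary among their base sequences.
TRBV5-TRBJ2-7, 62 buffer cells: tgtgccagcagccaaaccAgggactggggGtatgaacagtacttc
TRBV5-TRBJ2-7, 33 buffer cells: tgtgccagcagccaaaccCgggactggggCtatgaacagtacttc
TRBV5-TRBJ2-7, 0, 6, 7 and 11 cells: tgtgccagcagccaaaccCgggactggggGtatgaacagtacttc
TRBV2-TRBJ1-1, 2 buffer cells: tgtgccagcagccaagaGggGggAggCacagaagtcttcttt
TRBV2-TRBJ1-1, 5 cells at 10 mg/kg: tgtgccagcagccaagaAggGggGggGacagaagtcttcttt
TRBV2-TRBJ1-1, 56 cells at 1.25 mg/kg: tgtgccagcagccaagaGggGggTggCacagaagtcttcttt
TRBV2-TRBJ1-1, 30 cells at 1.25 mg/kg: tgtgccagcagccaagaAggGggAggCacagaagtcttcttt
TRBV2-TRBJ1-1, 5 combination cells: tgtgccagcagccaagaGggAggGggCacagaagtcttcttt
No base sequence of the TRBV2-TRBJ1-1 chain was found in more than 1 library.

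Of the other chains, TRBV5-TRBJ2-3 had 3, 2, 40 and 38 cells in 5 base sequences. A TRBV2-TRBJ2-7 chain had 0, 11, 28 and 188 cells and a second 0, 10, 29 and 10. TRBV20-TRBJ2-5 had 0, 4, 8 and 28 cells. All 40 of those with 1 alpha chain used TRAV3D-3, in 4 different alpha base sequences. TRBV12-2-TRBJ2-7 had 5, 7, 0 and 6 cells. Except in TRBV2-TRBJ1-1 and TRBV20-TRBJ2-5, alpha V use was mixed. The commonest alpha V held 52.2% (TRBV5-TRBJ2-7), 74.7% (TRBV5-TRBJ2-3), 83.5% and 61.1% (first and second TRBV2-TRBJ2-7) and 54.5% (TRBV12-2-TRBJ2-7) of cells with 1 alpha chain. It was found in 3 libraries for TRBV5-TRBJ2-3 and in only 1 for the rest of these mixed chains. These shares count cells, and cells of a clonotype share their alpha chain by descent. In the same order, 115, 75, 206, 36 and 11 cells held only 6, 4, 8, 5 and 2 alpha base sequences. Of the cells of each of these 7 chains, 90% to 100% had a Pdcd1 UMI in each library that held them, against 72.0%, 16.0%, 48.8% and 59.9% of all cells with a beta chain and 93.0%, 96.3%, 95.2% and 96.0% of cells in clonotypes of at least 5. The gap to all cells was widest in the 10 mg/kg library, where clonotypes of at least 5 cells held 8.20% of the cells. These chains were chosen in part for having such clonotypes, and the shares of such clonotypes lay within the same 90% to 100%. The values therefore do not set recurrent chains apart from other expanded clonotypes. The clonotypes of all recurrent chains, 924 in number, had a mean insert of 8.08 bases against 9.94 for the rest.

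**Figure D4:**
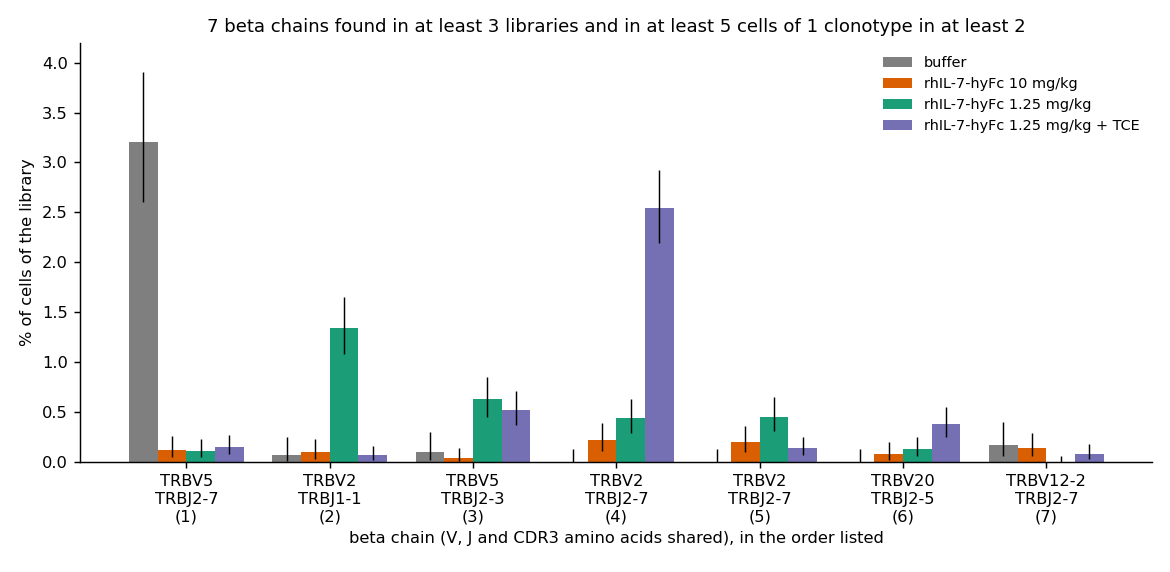
Share of each library's cells (y axis, percent) that carry each of 7 recurrent beta chains, defined by V, J and CDR3 amino acids, in the 4 libraries. The TRBV5-TRBJ2-7 chain reaches 3.21% in the buffer library, and a TRBV2-TRBJ2-7 chain 2.54% in the combination library.

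CDR3 length per clonotype differed by little between libraries. Per clonotype it was 13.98 ± 1.46 amino acids (SD) after buffer, 13.93 ± 1.43 at 10 mg/kg, 13.86 ± 1.40 at 1.25 mg/kg and 13.91 ± 1.38 with the combination. The difference was -0.0465 residues in experiment 1 (-0.139 to 0.0461) and 0.0490 in experiment 2 (-0.0133 to 0.111). Counted per cell it was 0.0178 (-0.0472 to 0.0827) in experiment 1 and -0.0638 (-0.111 to -0.0170) in experiment 2. Both had the other sign, the latter with an interval that excluded 0. These intervals are too narrow, since cells of a clonotype share a CDR3. In the 1.25 mg/kg library the largest clonotype alone gave 178 cells of 17 residues, and the difference without it was not tested. Clonotypes of at least 5 cells were longer than 1-cell clonotypes by 0.157, 0.386, 0.423 and 0.196 residues, with intervals above 0 in the 10 and 1.25 mg/kg libraries. The segments themselves set a wider range: in the buffer library TRBV20 clonotypes averaged 12.8 residues and TRBV2 clonotypes 14.8, and TRBJ2-7 averaged 13.2 and TRBJ2-3 15.1.

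The joints followed the layout of the locus. A TRBJ1 segment was never found with the constant gene TRBC2, nor a TRBJ2 segment with TRBC1 (0 cells). Trbd2 lies behind the TRBJ1 cluster, and an insert whose best match of at least 6 bases was to TRBD2 was found in 5.31%, 4.67%, 3.65% and 4.69% of TRBJ1 clonotypes, against 49.6%, 47.1%, 48.0% and 48.4% of TRBJ2 clonotypes. TRBD1 matched in 46.1%, 47.0%, 44.7% and 45.8% of TRBJ1 and in 21.4%, 21.7%, 21.6% and 20.9% of TRBJ2 clonotypes. Mean inserts, D bases included, ran from 8.28 to 9.0 bases over the TRBJ1 segments and from 9.77 to 10.8 over the TRBJ2 segments.

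V gene transcripts were also counted in the expression data of the same cells. A cell's V gene transcripts come mostly from the segment in its contig. These counts therefore repeat the shares per cell, large clonotypes included, and are not a separate result. Of 20 Trbv genes with at least 5 CPM (UMIs of a gene relative to all UMIs of these cells), 12 (60%) differed by at least 1.5-fold on CPM + 1 in experiment 1 and 7 (35%) in experiment 2, where 23% and 9.52% of all genes did. Of 10 genes of the TCR complex and its signalling, 1 (10%) passed in experiment 1, Cd3g, a CD3 chain, lower at 10 mg/kg with a log2 difference of -0.60, and 0 (0%) in experiment 2. Rag1 and Rag2, the recombinase genes, were at 0 UMIs. Trbv13-2 transcripts were also found in cells whose contig uses another segment. They had a UMI in 28.1%, 31.4%, 20.8% and 30.4% of cells using the segments from Trbv13-3 to Trbv20, which lie just downstream. In cells using segments upstream of Trbv13-2 the shares were 4.33%, 5.12%, 4.82% and 2.33%, and in those using Trbv23 to Trbv30, farther downstream, 4.15%, 5.30%, 2.15% and 1.28%. The share was thus highest for the segments just downstream in all 4 libraries.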

How the data were processed

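The authors deposited, for each of 4 libraries, a 10x Genomics single-cell expression matrix of UMI counts and a table of assembled TCR contigs with read and UMI counts per contig. Cell Ranger and GRCm38 are named in the submitters' processing notes; per the file headers, the expression matrices were made with version 4.0.0 in experiment 1 and 6.1.2 in experiment 2. For the TCR contigs no version is named in the sources used here. Contig tables of experiment 1 hold productive and non-productive contigs and those of experiment 2 only productive ones. Total expression UMIs of the member cells were 30745367, 50690048, 46290104 and 51680244.

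From these counts, shares were computed with Python 3.11.15, pandas 2.3.3 and SciPy 1.17.1. Shares carry 95% Clopper-Pearson intervals and differences Newcombe intervals, which cover counting error only; the limit for a count of 0 uses Clopper-Pearson. With 1 library per group no test across samples was made. A difference was counted when at least 1.5-fold, among segments with at least 20 cells or clonotypes in either library. A clonotype is the set of cells of a library with 1 CDR3 base sequence. CDR3 ends were matched to GENCODE M21 transcripts of GRCm38. On simulated data the insert came out 0.520 bases too short on average, and 118 of 120 changed segments were recovered, with 2 false calls. The simulated cells were drawn independently, without clonotypes, so these numbers do not carry over to the counts per cell. Marker values used barcodes with at least 500 genes and under 10% mitochondrial UMIs. CPM values of the Trbv and TCR complex genes and of all genes used every member cell with an expression profile, without that filter.

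The members and lists were chosen with earlier results of these data known. Segments named are all TRBJ, the TRBV with at least 5% of a library, and the 3 highest and 3 lowest differences of each contrast; codon 6, the recurrent chains and the set of 4 V segments were chosen after the values were seen. Non-productive contigs were left out of the comparisons and are given only in the closing section. Alternatives are listed in the closing section. Items withheld from the text, among them a recurrent chain, are not reported here.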

Additional observations from a re-analysis of the deposited data

Results flagged for a closer look

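Beta contigs not called productive, for example because the joint is out of frame or the contig is incomplete, are left out of the comparisons above. The experiment 1 tables hold 3237 such contigs after buffer and 5213 at 10 mg/kg, of which 527 and 1120 name a V segment, with a median of 3 UMIs. For 3 segments the share at 10 mg/kg stood out above that of the buffer library: TRBV10, at 11.4% against 6.83%, TRBV15, at 9.20% against 2.85%, and TRBV31, at 8.04% against 3.98%. Other segments were lower at 10 mg/kg, such as TRBV2, at 1.96% against 10.4%, TRBV12-2, at 3.12% against 10.1%, and TRBV13-1, at 5.00% against 11%, and several low ones were higher, such as TRBV29, at 3.12% against 1.33%. TRBV23 was 4.64% of the non-productive contigs with a V segment at 10 mg/kg and 3.23% after buffer, against 0.176% and 0% of productive clonotypes. These are values of single libraries, and their cause was not tested.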

How the results depend on the processing

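No paired analysis was possible because each group was 1 library. Of 96 alternative values of the 14 counts and length differences that summarise the comparisons, 83 stayed close to the value reported, and 13 moved. A count was taken as close when unchanged or within 1.5-fold, and a difference or share when inside the reported interval. A further 48 results were differences of chosen segments, not of all segments, and the codon 6 shares of TRBV26. Of their 308 alternative values, 290 stayed, 15 moved and 3 reversed. At a threshold of 2-fold, the V segments counted per cell were 7 in experiment 1 and 1 in experiment 2, those per clonotype in experiment 1 were 0, and the J segments per cell were 1 and 1. V segments per clonotype in experiment 1 numbered 2 with clonotypes defined by CDR3 bases and alpha chains and 0 with contigs of at least 3 UMIs. In experiment 2, V segments per cell numbered 2 without the largest clonotype, V segments per clonotype 1 with V names as deposited, and J segments per cell 6 with exactly 1 TRB and 1 TRA. J segments higher among expanded clonotypes numbered 0 with at least 2 cells, and those lower 4 with at least 10 cells. The CDR3 length difference of experiment 2 took the other sign per cell, at -0.0638 residues (-0.111 to -0.0170). TRBJ1-6 in experiment 1 turned to 0.874 points with exactly 1 TRB and 1 TRA, and TRBV16 and TRBJ2-5 in experiment 2 to -1.97 and -1.50 points without the largest clonotype; the last pair follows from removing that TRBV16-TRBJ2-5 family, and the other causes were not tested. The arginine share of expanded TRBV26 clonotypes in the combination library was 55.9% with at least 2 cells and 100% with at least 10.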

Other observations

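Within a library, pairs of clonotypes with the same V, J and CDR3 amino acids but other bases numbered 13, 51, 75 and 86. Of these, 5, 22, 37 and 43 differed by 1 base. Where both had an alpha chain, the alpha chain was the same in 1 of 13, 3 of 47, 5 of 69 and 12 of 77. CDR3 base sequences found in at least 2 libraries, 185 in number, had a mean insert of 7.01 bases and a mean length of 13.1 residues, against 9.89 and 13.9 for the others.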
